A study of Homo sapiens with 33 samples.

Results

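The genes described here are 28 human genes of sterol synthesis and uptake, measured in HT29 cells treated with herbal extracts. They were chosen by symbol for their role in the pathway, from the 60675 genes of the deposited table, with earlier results of these data known. Shares of members set beside shares of all genes therefore describe the set and do not test it. HT29 is an established line from a human colorectal adenocarcinoma. All 28 were among the 17432 genes that passed a filter on low counts. Cells were treated for 24 h with 70% ethanol extracts of 4 herbal formulas, each at a low (20 µg/mL), a medium (100 µg/mL) and a high dose (500 µg/mL). Where 4 values follow each other below, they are for Sagunja-tang, Samul-tang, then Palmul-tang, then Sibjeondaebo-tang. In traditional use Palmul-tang joins the herbs of Sagunja-tang and Samul-tang, and Sibjeondaebo-tang adds further herbs to Palmul-tang. Vehicle cells received 0.1% DMSO by the sample labels, while the series' own text gives another percentage. There were 3 vehicle libraries, 2 at each dose of Sagunja-tang and Samul-tang (numbered 2 and 3 in the labels) and 3 at each dose of the other two, 33 in all.

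Cells make cholesterol from acetyl-CoA by the mevalonate pathway, which runs through farnesyl diphosphate, squalene and lanosterol, and farnesyl diphosphate also feeds protein prenylation and dolichol. The pathway's genes are switched on by SREBP2, encoded by SREBF2. When membranes hold enough sterol, the INSIG proteins keep SREBP2 and its escort SCAP in the endoplasmic reticulum, and INSIG1 is itself a target of SREBP2. Sterol that arrives by endocytosis leaves the lysosome through NPC2 and NPC1.

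Promoter sequences are shown for 5 members on which the results turn. INSIG1, HMGCS1 and LSS were lower in every high-dose library than in every lower-dose library, MSMO1 was lower than vehicle at all 3 doses of each extract, and SREBF2 encodes the pathway's transcription factor. Each is the stretch before the annotated gene, 5′ to 3′ on the gene's strand, from RefSeq (GRCh38.p14). Capitals mark CCAAT or its reverse complement ATTGG, the box bound by NF-Y, and in SREBF2 also a match to TCACNCCAC, the core of the sterol regulatory element. Bases between a stretch and the RefSeq start site are not shown. They hold a further such box in HMGCS1, at -100 from the start, and in MSMO1, at -34.
INSIG1 promoter, chr7:155297628-155297775, plus strand: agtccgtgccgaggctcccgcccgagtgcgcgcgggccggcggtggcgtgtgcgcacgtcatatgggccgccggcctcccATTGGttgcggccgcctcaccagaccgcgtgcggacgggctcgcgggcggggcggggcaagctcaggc
HMGCS1 promoter, chr5:43313513-43313662, minus strand: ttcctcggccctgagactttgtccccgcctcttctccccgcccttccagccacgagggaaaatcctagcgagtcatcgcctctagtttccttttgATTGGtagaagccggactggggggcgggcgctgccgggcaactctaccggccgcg
LSS promoter, chr21:46228825-46229024, minus strand: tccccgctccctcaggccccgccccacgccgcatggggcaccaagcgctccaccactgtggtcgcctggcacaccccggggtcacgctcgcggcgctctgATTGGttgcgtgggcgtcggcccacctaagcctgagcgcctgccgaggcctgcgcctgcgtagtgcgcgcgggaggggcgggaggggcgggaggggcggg
MSMO1 promoter, chr4:165327419-165327622, plus strand: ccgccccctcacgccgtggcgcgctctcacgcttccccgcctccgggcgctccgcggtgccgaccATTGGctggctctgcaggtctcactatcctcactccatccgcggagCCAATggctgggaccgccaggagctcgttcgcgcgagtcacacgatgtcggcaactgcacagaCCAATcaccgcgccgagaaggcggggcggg
SREBF2 promoter, chr22:41832855-41833078, plus strand: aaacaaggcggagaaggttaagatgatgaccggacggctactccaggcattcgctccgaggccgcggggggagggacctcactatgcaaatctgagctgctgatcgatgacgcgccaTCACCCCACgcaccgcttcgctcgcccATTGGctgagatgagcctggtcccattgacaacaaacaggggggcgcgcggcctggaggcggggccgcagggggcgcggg

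RefSeq promoter windows, which run from 250 bases before to 50 bases after a start site, were matched for 25 of the 28 members. A CCAAT on either strand was found in 18 of these 25 genes (72.0%), against 39.7% of the 27305 genes in the table. GGGCGG, the core of an Sp1 site, was found in 23 of 25 (92.0%), against 48.3%. CACGTG, an E-box, was found in 5 of 25 (20.0%), against 8.77%. TCACNCCAC was found in 1 of 25, SREBF2, against 1.39% of all genes. These counts describe letters in a fixed window, and binding was not measured.

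Library totals ran from 31071774 to 35626385 counts in vehicle and from 28558838 to 49068027 counts with extracts. Counts from mitochondrially encoded genes made up 8.69 to 11.4% of vehicle libraries and 5.71 to 8.83% of extract libraries. Of 11 colon epithelium markers 10 had a median above 1 CPM (counts relative to the TMM-scaled library size), CDX1 being at 0.88, and they summed to 12665 to 13136 CPM in vehicle and 11972 to 14551 CPM with extracts. Of 5 immune markers CD68 and CD14 were above 0 in every library, with medians of 5.60 and 3.61 CPM, the former above that of the epithelial CDX2, while PTPRC, CD3E and MS4A1 had medians of 0. The immune sum was 8.98 to 12.9 CPM in vehicle and 6.63 to 10.4 CPM with extracts. Of 6 fibroblast markers COL1A1 and LUM were above 0 in every library, with medians of 1.21 and 0.84 CPM, PDGFRB was at 0.03, and COL1A2, COL3A1 and DCN had medians of 0 (sums of 1.85 to 2.24 CPM in vehicle and 1.70 to 2.74 CPM with extracts). Of 3 endothelial markers PECAM1 was at 1.54, VWF at 0.03 and CDH5 at 0 CPM (1.70 to 1.97 and 1.13 to 2.07 CPM). The part of these genes in the results was not tested. The titles of all libraries, vehicle included, name the same batch, BatchE, without saying which steps were shared. Sample codes have 3 different starts, for vehicle, for Sagunja-tang with Samul-tang and for Palmul-tang with Sibjeondaebo-tang. Their meaning is not given in the labels. Whatever differed between these 3 sets cannot be told apart from the treatments in comparisons across them, whereas the high and low doses of an extract lie within a set. Of all replicate pairs, the high-dose Sagunja-tang pair differed most (chi-square 26.8 per gene). In this pair the log2 ratio of replicate 3 to replicate 2 also rose with exon length (Spearman 0.248). The other pairs lay between -0.163 and 0.118. In replicate 2 PMVK, the member with the shortest exon length, was at its highest level of all libraries and NPC1, with the longest, at its lowest. With length and GC trends removed, 161 of 176 member calls over all comparisons were kept. Vehicle replicate 3 was lower than replicates 1 and 2 for several members. Calls that ended without any 1 library are given with each gene. Nothing in the labels says whether replicates were separate cultures, and the spread behind each p-value may therefore be technical. In bulk RNA a change in the share of cells that express a gene and a change per cell cannot be told apart.

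Per kilobase of exon, the most abundant member in vehicle was SQLE at 200.8 ± 10.3 CPM per kb (SD, n = 3). DHCR7 followed at 97.6 ± 4.79, then HMGCS1 at 61.0 ± 7.01, CYP51A1 at 57.8 ± 4.54 and INSIG1 at 54.1 ± 2.51 CPM per kb. The last 3 did not differ beyond their spread. At the low end were INSIG2 at 5.63 ± 0.687, NPC1 at 5.45 ± 0.521 and HSD17B7 at 3.67 ± 0.448 CPM per kb. All other levels below are in CPM, which compare a gene between libraries and not with other genes.

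From the low to the high dose, 10 to 19 of the 28 members were called lower with 3 of the extracts and 3 with Sagunja-tang. LBR was the only member called higher. With only the 2 Sagunja-tang groups fitted, none of its calls remained. LSS, which closes squalene epoxide into lanosterol, INSIG1 and HMGCS1, the enzyme that makes HMG-CoA, fell in all 4 extracts. Palmul-tang had the most calls, with HMGCS1 down by 0.50 ± 0.06 on the log2 scale, TM7SF2 and HSD17B7 each by 0.47 (SE 0.06 and 0.08) and INSIG1 by 0.43 ± 0.04. A gene is called here when its Benjamini-Hochberg adjusted p over all 17432 genes was under 0.05 in edgeR's quasi-likelihood test, and changes are log2 fold changes ± SE. With Palmul-tang (n = 3 against 3) 19 members were called lower and 1 higher, where 14.4% of all genes were called, 6.75% lower and 7.66% higher. The members' median was -0.22, against 0.00 for all genes. Sibjeondaebo-tang (n = 3 against 3) gave 13 lower and 1 higher, with 29.9% of all genes called (14.3% lower, 15.5% higher) and a median of -0.15. Samul-tang (n = 2 against 2) gave 10 lower and 1 higher, with 7.53% called (3.43% lower, 4.1% higher) and a median of -0.18. Sagunja-tang (n = 2 against 2) gave 3 lower and 1 higher, with 7.19% called (3.86% lower, 3.33% higher) and a median of -0.06.

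By step of the pathway, with Palmul-tang the high dose was lower in 6 of the 7 genes that lead to farnesyl diphosphate, all 3 from squalene to lanosterol and 7 of the 9 from lanosterol to cholesterol, with LBR higher. Also lower were 1 of 2 branch genes (GGPS1), 1 of 4 sensing genes (INSIG1) and 1 of 3 genes of sterol movement (NPC2). With Sibjeondaebo-tang 4 of 7, 1 of 3 and 6 of 9 genes of the 3 synthesis steps fell, and with Samul-tang 5 of 7, 1 of 3 and 2 of 9. With Sagunja-tang HMGCS1, LSS and INSIG1 fell and no other member. Over the 4 extracts, 19 members fell in at least 1 extract and 8 were called in none: PMVK, DHCR7, DHDDS, SREBF2, SCAP, INSIG2, NPC1 and STARD4. For such counts over several extracts, above and below, the share of all genes was not counted. The Sagunja-tang count of 4 went to 1 without high replicate 2, low replicate 2 or low replicate 3 and to 7 (4 lower, 3 higher) without high replicate 3, and to 0 when only its own 2 groups were fitted. The Samul-tang count of 11 went to 6 without low replicate 2 and 7 without low replicate 3 or high replicate 3, and to 19 with only its own groups fitted, while that of Sibjeondaebo-tang went from 14 to 9 without high replicate 2.

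**Figure D1:**
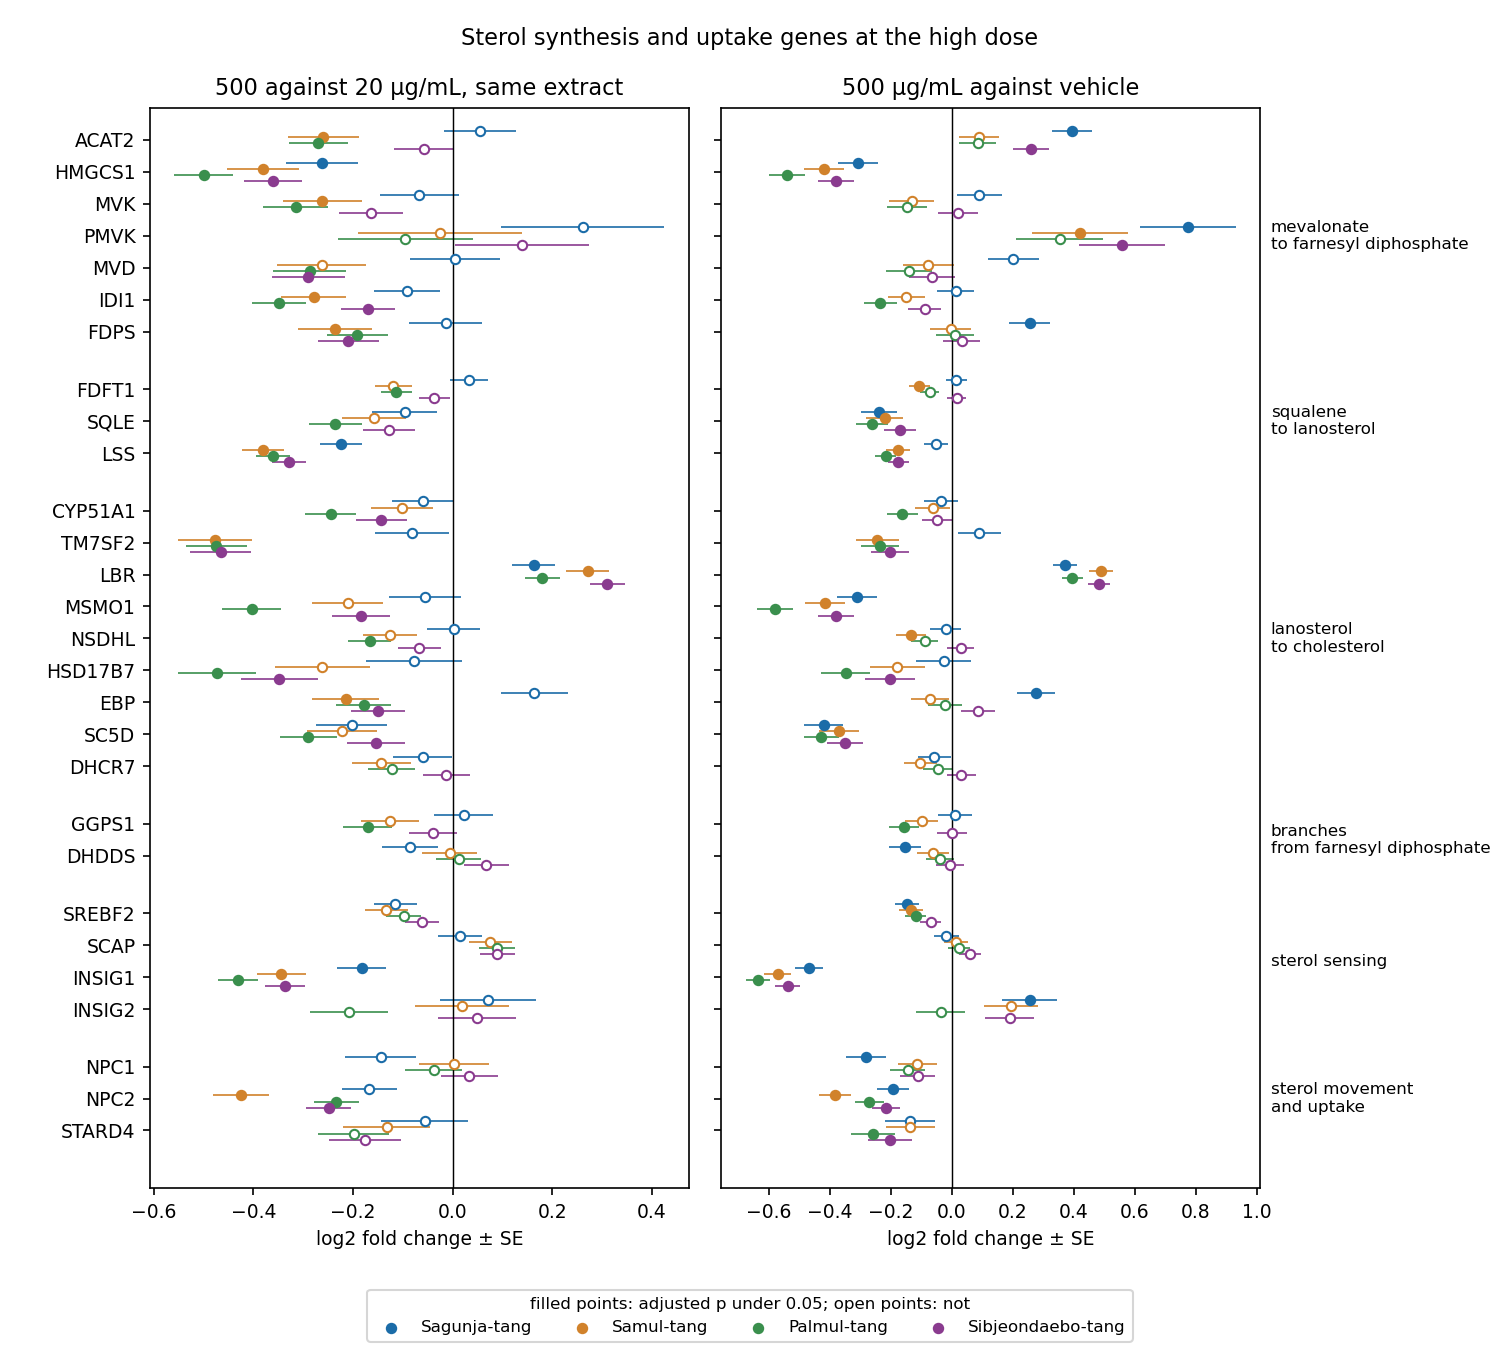
Log2 fold change ± SE (horizontal) of each of the 28 members (vertical, grouped by role) at the high dose, against the low dose of the same extract on the left and against vehicle on the right. Points are coloured by extract and filled where the adjusted p was under 0.05. In the left panel 18, 24, 25 and 22 of 28 points lie left of 0 in the order of the legend, and LBR lies right of 0 in all 4 extracts.

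Against vehicle, INSIG1, HMGCS1, MSMO1, SC5D, SQLE and NPC2 were lower at the high dose in all 4 extracts and LBR was higher in all 4. The share of all genes called the same way in all 4 was not counted. MSMO1 and SC5D are oxidases of the steps after lanosterol, and SQLE is the epoxidase that acts on squalene. Palmul-tang gave 14 of 28 members lower and 1 higher, with 32.1% of all genes called (14.8% lower, 17.3% higher) and a members' median of -0.15 against -0.01 for all genes. Samul-tang gave 11 lower and 2 higher, with 27.5% called (12.5% lower, 15% higher) and a median of -0.12. Sibjeondaebo-tang gave 10 lower and 3 higher, with 39.6% called (19.1% lower, 20.5% higher) and a median of -0.06. Sagunja-tang gave 9 lower and 6 higher, with 36.7% called (18% lower, 18.7% higher) and a median of -0.02. With all libraries MVK, MVD, DHCR7 and SCAP were called in none of the 4.

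All 4 comparisons share the 3 vehicle libraries. Without vehicle replicate 3 the numbers lower were 9, 14, 16 and 12, and 5, 1, 1 and 4 were higher. For counts from such other fits, here and elsewhere, the share of all genes called is not given. A shift in them is therefore not told apart from a shift over all genes. Calls gained without it were STARD4 and NPC1 (given with those genes), IDI1 lower with Samul-tang at -0.21 ± 0.06 and Sibjeondaebo-tang at -0.15 ± 0.06, MVK and FDFT1 lower with Palmul-tang at -0.21 ± 0.07 and -0.09 ± 0.03, and SCAP higher with Sibjeondaebo-tang at 0.10 ± 0.04. The Sagunja-tang count of 15 went to 7 (5 lower, 2 higher) without its high replicate 2 and to 5 with only its own 2 groups fitted, and the Samul-tang count of 13 went to 7 without its high replicate 2. The mitochondrial share given above was lower with extracts than with vehicle, overlapping only between 8.69 and 8.83%. With mitochondrially encoded genes left out of the scaling 172 of the 176 member calls over all comparisons were kept.

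**Figure D2:**
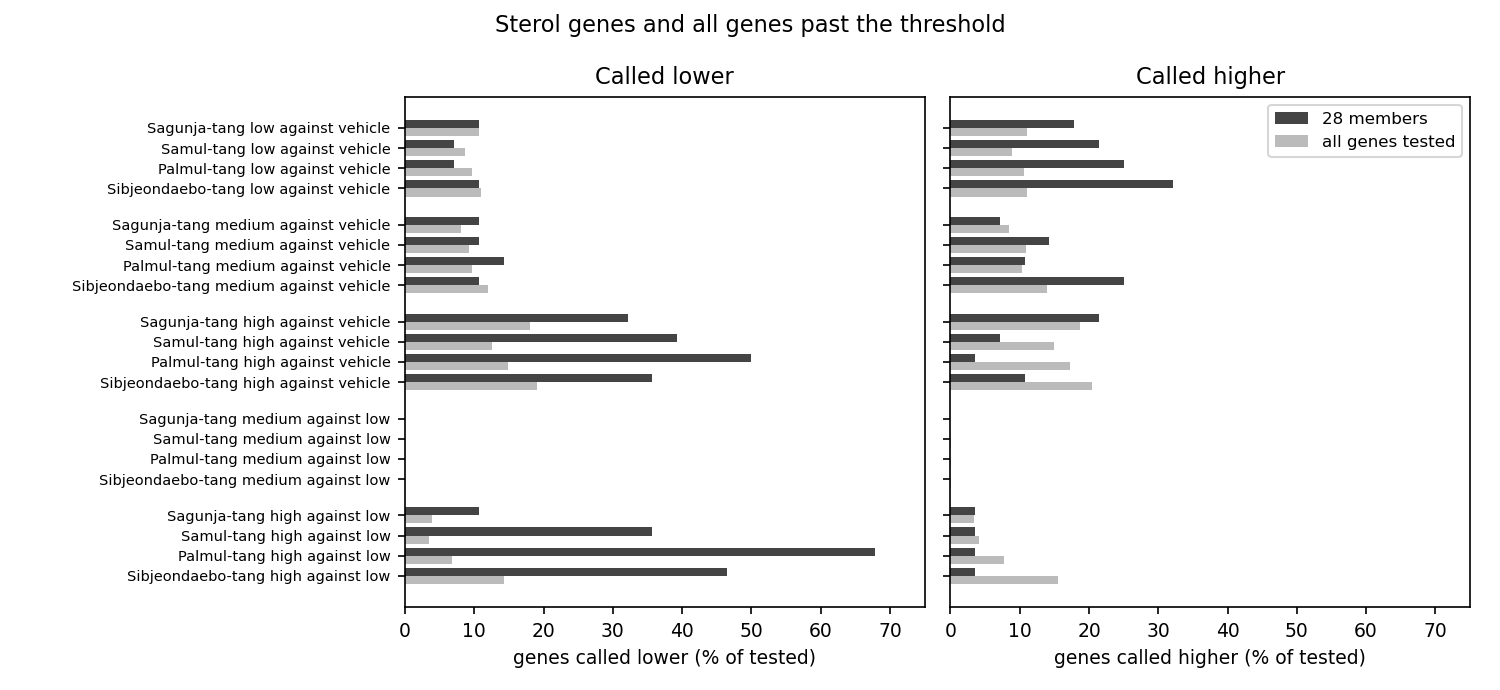
Share of the 28 members (dark bars) and of all 17432 genes tested (light bars) called lower (left) and called higher (right), in percent, for each extract and comparison. At the high dose the dark bars for genes called lower reach 50% of members against vehicle and 67.9% against the low dose with Palmul-tang, and between the medium and low doses no bar is visible for the members.

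Libraries of a group are given in the order of their replicate numbers. Of the 7 genes that lead to farnesyl diphosphate, HMGCS1 was lower at the high dose in all 4 extracts (ENSG00000112972, chromosome 5, 43289395 to 43313512, GENCODE 29). HMGCS1 was at 303, 308 and 249 CPM in vehicle, and at 278 and 278 at the low, 263 and 251 at the medium and 241 and 222 at the high dose with Sagunja-tang. HMGCS1 was at 272 and 287 at the low, 271 and 267 at the medium and 217 and 212 at the high dose with Samul-tang, and at 283, 279.9 and 274 at the low, 286, 262 and 262 at the medium and 208, 194 and 189.7 at the high dose with Palmul-tang. HMGCS1 was at 295, 266 and 287 at the low, 277, 252 and 275 at the medium and 224, 212 and 224 at the high dose with Sibjeondaebo-tang. All 10 high-dose libraries were below all 20 of the lower doses, and below the 3 vehicle libraries, of which replicate 3 was lowest. The change from low to high dose was -0.26 ± 0.07, -0.38 ± 0.07, -0.50 ± 0.06 and -0.36 ± 0.06, called in all 4. Against vehicle it was -0.31 ± 0.07, -0.42 ± 0.07, -0.54 ± 0.06 and -0.38 ± 0.06, again called in all 4, with adjusted p of 0.000578, 3.61e-05, 1.12e-07 and 1.03e-05 by edgeR's quasi-likelihood test. High-dose HMGCS1 calls that ended with 1 library left out were Sagunja-tang over the low dose (-0.32 without high replicate 2, -0.27 without low replicate 2, -0.21 without high replicate 3, -0.26 without low replicate 3).

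IDI1 isomerizes isopentenyl diphosphate. IDI1 was at 162, 163 and 143 CPM in vehicle, and at 168 and 168 at the low, 155 and 152 at the medium and 171 and 144 at the high dose with Sagunja-tang. IDI1 was at 172 and 169.6 at the low, 159 and 167 at the medium and 143 and 139 at the high dose with Samul-tang, and at 169, 177 and 161 at the low, 172, 163 and 152 at the medium and 139, 128 and 129.9 at the high dose with Palmul-tang. IDI1 was at 166, 162 and 168 at the low, 168, 157 and 164 at the medium and 153, 143 and 144 at the high dose with Sibjeondaebo-tang. High-dose libraries lay below the low-dose ones in each extract but Sagunja-tang. Its change from low to high was -0.09 ± 0.07, -0.28 ± 0.07, -0.35 ± 0.05 and -0.17 ± 0.05, called in the last 3, and against vehicle 0.01 ± 0.06, -0.15 ± 0.06, -0.23 ± 0.05 and -0.09 ± 0.05, called with Palmul-tang. High-dose IDI1 calls that ended with 1 library left out were Samul-tang over the low dose (-0.28 without low replicate 2, -0.27 without high replicate 3) and Sibjeondaebo-tang over the low dose (-0.15 without high replicate 2, -0.16 without high replicate 3).

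MVD decarboxylates mevalonate diphosphate. MVD was at 51.1, 52.0 and 44.8 CPM in vehicle, and at 57.6 and 55.6 at the low, 53.0 and 53.5 at the medium and 63.4 and 50.3 at the high dose with Sagunja-tang. MVD was at 54.7 and 57.5 at the low, 59.9 and 52.1 at the medium and 49.2 and 44.5 at the high dose with Samul-tang, and at 57.7, 56.0 and 50.1 at the low, 53.4, 56.0 and 47.2 at the medium and 44.8, 46.3 and 43.3 at the high dose with Palmul-tang. MVD was at 57.2, 59.5 and 56.1 at the low, 56.7, 54.4 and 55.1 at the medium and 43.8, 49.1 and 48.6 at the high dose with Sibjeondaebo-tang. Only with Sagunja-tang did the high and low doses overlap. MVD changed by 0.00 ± 0.09, -0.26 ± 0.09, -0.29 ± 0.07 and -0.29 ± 0.07 from low to high, called with Palmul-tang and Sibjeondaebo-tang, and differed from vehicle by 0.20 ± 0.08, -0.08 ± 0.08, -0.14 ± 0.07 and -0.07 ± 0.07, called in none. High-dose MVD calls that ended with 1 library left out were Palmul-tang over the low dose (-0.25 without low replicate 1). MVD calls over vehicle at the lower doses ended so for Sibjeondaebo-tang low (0.22, and 0.16 to 0.23 without vehicle replicate 3, low replicate 1 or low replicate 2).

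MVK is mevalonate kinase. MVK was at 42.1, 42.8 and 36.9 CPM in vehicle, and at 46.4 and 44.2 at the low, 41.9 and 41.0 at the medium and 45.2 and 41.4 at the high dose with Sagunja-tang. MVK was at 43.9 and 45.0 at the low, 46.0 and 44.1 at the medium and 38.2 and 36.1 at the high dose with Samul-tang, and at 48.9, 43.8 and 44.2 at the low, 47.1, 43.6 and 39.6 at the medium and 39.5, 35.7 and 34.8 at the high dose with Palmul-tang. MVK was at 47.4, 46.9 and 44.0 at the low, 49.0, 42.6 and 46.6 at the medium and 43.3, 40.2 and 39.9 at the high dose with Sibjeondaebo-tang. The high-dose libraries of Samul-tang, Palmul-tang and Sibjeondaebo-tang were below their own low-dose libraries, and all 4 extracts overlapped vehicle at the high dose. Its low-to-high change was -0.07 ± 0.08, -0.26 ± 0.08, -0.31 ± 0.06 and -0.16 ± 0.06, called with Samul-tang and Palmul-tang. MVK overlaps MMAB on the opposite strand, and the strand setting of the counting is not given in the sources used here. High-dose MVK calls that ended with 1 library left out were Samul-tang over the low dose (-0.31 without high replicate 2, -0.29 without low replicate 2, -0.23 without high replicate 3, -0.25 without low replicate 3). MVK calls over vehicle at the lower doses ended so for Sibjeondaebo-tang low (0.18, and 0.12 to 0.17 without vehicle replicate 3, low replicate 1 or low replicate 2) and Sibjeondaebo-tang medium (0.18, and 0.12 to 0.17 without vehicle replicate 3, medium replicate 1 or medium replicate 3).

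FDPS makes farnesyl diphosphate. FDPS was at 150.3, 151 and 137 CPM in vehicle, and at 177 and 174 at the low, 166 and 163 at the medium and 195 and 154 at the high dose with Sagunja-tang. FDPS was at 170.0 and 173 at the low, 178 and 161 at the medium and 149 and 142 at the high dose with Samul-tang, and at 168, 174 and 161 at the low, 168, 171 and 154 at the medium and 153, 148 and 140.2 at the high dose with Palmul-tang. FDPS was at 174, 166 and 178 at the low, 168, 168 and 170.3 at the medium and 142, 149 and 156 at the high dose with Sibjeondaebo-tang. With Sagunja-tang the high-dose replicates stood apart, at 195 and 154 CPM. FDPS changed by -0.01 ± 0.07, -0.24 ± 0.07, -0.19 ± 0.06 and -0.21 ± 0.06 from low to high, called in the last 3, and against vehicle by 0.25 ± 0.07, 0.00 ± 0.07, 0.01 ± 0.06 and 0.03 ± 0.06, called higher with Sagunja-tang. High-dose FDPS calls that ended with 1 library left out were Samul-tang over the low dose (-0.28 without high replicate 2, -0.26 without low replicate 2, -0.21 without high replicate 3, -0.23 without low replicate 3), Palmul-tang over the low dose (-0.19 without low replicate 1, -0.20 without high replicate 2, -0.17 without low replicate 2, -0.17 without high replicate 3), Sibjeondaebo-tang over the low dose (-0.17 without high replicate 1) and Sagunja-tang over vehicle (0.08 without high replicate 2). FDPS calls over vehicle at the lower doses ended so for Sagunja-tang low (0.27, and 0.27 without low replicate 2), Samul-tang low (0.23, and 0.19 to 0.25 without vehicle replicate 3, low replicate 2 or low replicate 3), Palmul-tang low (0.20, and 0.16 to 0.18 without vehicle replicate 3 or low replicate 2), Samul-tang medium (0.22, and 0.15 to 0.17 without vehicle replicate 3 or medium replicate 2) and Sibjeondaebo-tang medium (0.21, and 0.17 without vehicle replicate 3).

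ACAT2 makes acetoacetyl-CoA in the cytosol. ACAT2 was at 82.3, 81.3 and 76.0 CPM in vehicle, and at 106 and 96.0 at the low, 96.1 and 94.3 at the medium and 114 and 96.5 at the high dose with Sagunja-tang. ACAT2 was at 103 and 100.2 at the low, 104 and 97.3 at the medium and 87.7 and 82.4 at the high dose with Samul-tang, and at 104, 99.4 and 104 at the low, 107, 101 and 89.0 at the medium and 90.3, 84.3 and 79.7 at the high dose with Palmul-tang. ACAT2 was at 102, 94.9 and 102 at the low, 100.2, 96.9 and 99.4 at the medium and 94.0, 96.0 and 96.9 at the high dose with Sibjeondaebo-tang. Every low- and medium-dose library was above every vehicle library, and at the high dose only Palmul-tang overlapped vehicle. Over the low dose ACAT2 changed by 0.05 ± 0.07, -0.26 ± 0.07, -0.27 ± 0.06 and -0.06 ± 0.06, called with Samul-tang and Palmul-tang, and against vehicle by 0.39 ± 0.07, 0.09 ± 0.07, 0.08 ± 0.06 and 0.26 ± 0.06, called with Sagunja-tang and Sibjeondaebo-tang. ACAT2 overlaps TCP1 on the opposite strand, which had a mean count of 13367 against 3814 for ACAT2. High-dose ACAT2 calls that ended with 1 library left out were Samul-tang over the low dose (-0.25 without low replicate 2, -0.23 without high replicate 3, -0.29 without low replicate 3). ACAT2 calls over vehicle at the lower doses ended so for Sagunja-tang medium (0.25, and 0.22 to 0.25 without vehicle replicate 3 or medium replicate 2).

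PMVK, phosphomevalonate kinase, was the member with the largest difference from vehicle in the other direction. PMVK was at 16.3, 16.1 and 13.5 CPM in vehicle, and at 22.7 and 21.0 at the low, 21.5 and 19.4 at the medium and 33.1 and 19.7 at the high dose with Sagunja-tang. PMVK was at 22.1 and 19.5 at the low, 21.6 and 18.9 at the medium and 21.3 and 19.7 at the high dose with Samul-tang, and at 18.8, 24.4 and 19.5 at the low, 19.4, 26.1 and 17.0 at the medium and 19.6, 20.2 and 18.9 at the high dose with Palmul-tang. PMVK was at 19.8, 20.7 and 20.9 at the low, 20.0, 21.1 and 21.2 at the medium and 20.0, 23.6 and 24.1 at the high dose with Sibjeondaebo-tang. All 30 extract libraries were above all 3 vehicle libraries, as was so for 4.87% of all genes. Sagunja-tang high replicate 2, at 33.1 CPM, stood above every other library. PMVK differed from vehicle by 0.77 ± 0.16, 0.42 ± 0.16, 0.35 ± 0.14 and 0.56 ± 0.14 at the high dose, called in all but Palmul-tang, and from the low dose by 0.26 ± 0.16, -0.02 ± 0.16, -0.10 ± 0.14 and 0.14 ± 0.13, called in none. Without Sagunja-tang high replicate 2 that difference from vehicle was 0.36 ± 0.16 and was not called. High-dose PMVK calls that ended with 1 library left out were Sagunja-tang over vehicle (0.36 without high replicate 2) and Samul-tang over vehicle (0.47 without vehicle replicate 1, 0.45 without vehicle replicate 2, 0.34 without vehicle replicate 3, 0.36 without high replicate 2, 0.47 without high replicate 3). PMVK calls over vehicle at the lower doses ended so for Sagunja-tang low (0.51, and 0.43 to 0.57 without vehicle replicate 3, low replicate 2 or low replicate 3), Samul-tang low (0.44, and 0.36 to 0.54 without vehicle replicate 1, vehicle replicate 2, vehicle replicate 3, low replicate 2 or low replicate 3), Palmul-tang low (0.45, and 0.33 to 0.49 without vehicle replicate 2, vehicle replicate 3 or low replicate 2), Sibjeondaebo-tang low (0.42, and 0.34 to 0.46 without vehicle replicate 2, vehicle replicate 3, low replicate 1, low replicate 2 or low replicate 3), Palmul-tang medium (0.43, and 0.25 to 0.48 without vehicle replicate 2, vehicle replicate 3, medium replicate 1 or medium replicate 2) and Sibjeondaebo-tang medium (0.44, and 0.36 to 0.43 without vehicle replicate 3, medium replicate 2 or medium replicate 3).

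Among the 3 genes from squalene to lanosterol, LSS (ENSG00000160285, chromosome 21, 46188141 to 46228824) differed between low and high dose in all 4 extracts. LSS was at 111, 112 and 112 CPM in vehicle, and at 126 and 125 at the low, 117 and 118 at the medium and 108 and 108 at the high dose with Sagunja-tang. LSS was at 128 and 129 at the low, 122 and 119 at the medium and 102 and 95.5 at the high dose with Samul-tang, and at 127, 125 and 119 at the low, 119, 114 and 109 at the medium and 100.3, 95.8 and 92.5 at the high dose with Palmul-tang. LSS was at 123, 126 and 124 at the low, 123, 121 and 122 at the medium and 98.7, 101 and 97.3 at the high dose with Sibjeondaebo-tang. Low-dose libraries were all above vehicle and high-dose libraries all below it, and all 10 high-dose libraries were below all 20 of the lower doses. The low dose differed from vehicle by 0.17 ± 0.04, 0.20 ± 0.04, 0.14 ± 0.03 and 0.15 ± 0.03 and the high dose by -0.05 ± 0.04, -0.18 ± 0.04, -0.22 ± 0.03 and -0.17 ± 0.03, the former called in all 4 and the latter in all but Sagunja-tang. From low to high the change was -0.22 ± 0.04, -0.38 ± 0.04, -0.36 ± 0.03 and -0.33 ± 0.03, with adjusted p of 0.00171, 4.33e-07, 1.72e-08 and 3.96e-08 by edgeR's quasi-likelihood test. No LSS call against the low dose or vehicle at the high dose ended when 1 library was left out. LSS calls over vehicle at the lower doses ended so for Samul-tang medium (0.11, and 0.10 to 0.13 without vehicle replicate 1, vehicle replicate 2, vehicle replicate 3, medium replicate 2 or medium replicate 3).

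SQLE (squalene epoxidase) was the most abundant member. SQLE was at 889, 890.4 and 813 CPM in vehicle, and at 781 and 785 at the low, 773 and 789.8 at the medium and 717 and 748 at the high dose with Sagunja-tang. SQLE was at 822 and 833 at the low, 777 and 818 at the medium and 739.7 and 744 at the high dose with Samul-tang, and at 911, 805 and 829 at the low, 863, 768 and 804 at the medium and 752, 701 and 709.5 at the high dose with Palmul-tang. SQLE was at 884, 818 and 818 at the low, 881, 783 and 812 at the medium and 825, 739 and 742 at the high dose with Sibjeondaebo-tang. High-dose libraries were below all vehicle libraries except Sibjeondaebo-tang replicate 1. Its difference from vehicle at the high dose was -0.24 ± 0.06, -0.22 ± 0.06, -0.26 ± 0.05 and -0.17 ± 0.05, called in all 4, and the change from low to high was -0.10 ± 0.06, -0.16 ± 0.06, -0.24 ± 0.05 and -0.13 ± 0.05, called with Palmul-tang. High-dose SQLE calls that ended with 1 library left out were Sagunja-tang over vehicle (-0.21 without high replicate 2), Samul-tang over vehicle (-0.22 without high replicate 2) and Sibjeondaebo-tang over vehicle (-0.15 without vehicle replicate 1, -0.15 without vehicle replicate 2, -0.14 without high replicate 2, -0.14 without high replicate 3).

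FDFT1, squalene synthase, was called in 1 extract per comparison at the high dose. FDFT1 was at 210.3, 209.6 and 201 CPM in vehicle, and at 203 and 206 at the low, 196 and 205 at the medium and 219 and 200.3 at the high dose with Sagunja-tang. FDFT1 was at 209.7 and 208 at the low, 211 and 211 at the medium and 190.4 and 195 at the high dose with Samul-tang, and at 213, 214 and 212 at the low, 214, 204 and 208 at the medium and 199.5, 198 and 194 at the high dose with Palmul-tang. FDFT1 was at 218, 211 and 215 at the low, 211, 211 and 215 at the medium and 213, 207 and 208 at the high dose with Sibjeondaebo-tang. High-dose Samul-tang and Palmul-tang were below every vehicle library. Over the low dose it changed by 0.03 ± 0.04, -0.12 ± 0.04, -0.11 ± 0.03 and -0.04 ± 0.03, called with Palmul-tang, and against vehicle by 0.02 ± 0.03, -0.11 ± 0.03, -0.07 ± 0.03 and 0.02 ± 0.03, called with Samul-tang. High-dose FDFT1 calls that ended with 1 library left out were Samul-tang over vehicle (-0.09 without vehicle replicate 1, -0.10 without vehicle replicate 2, -0.09 without high replicate 2).

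**Figure D3:**
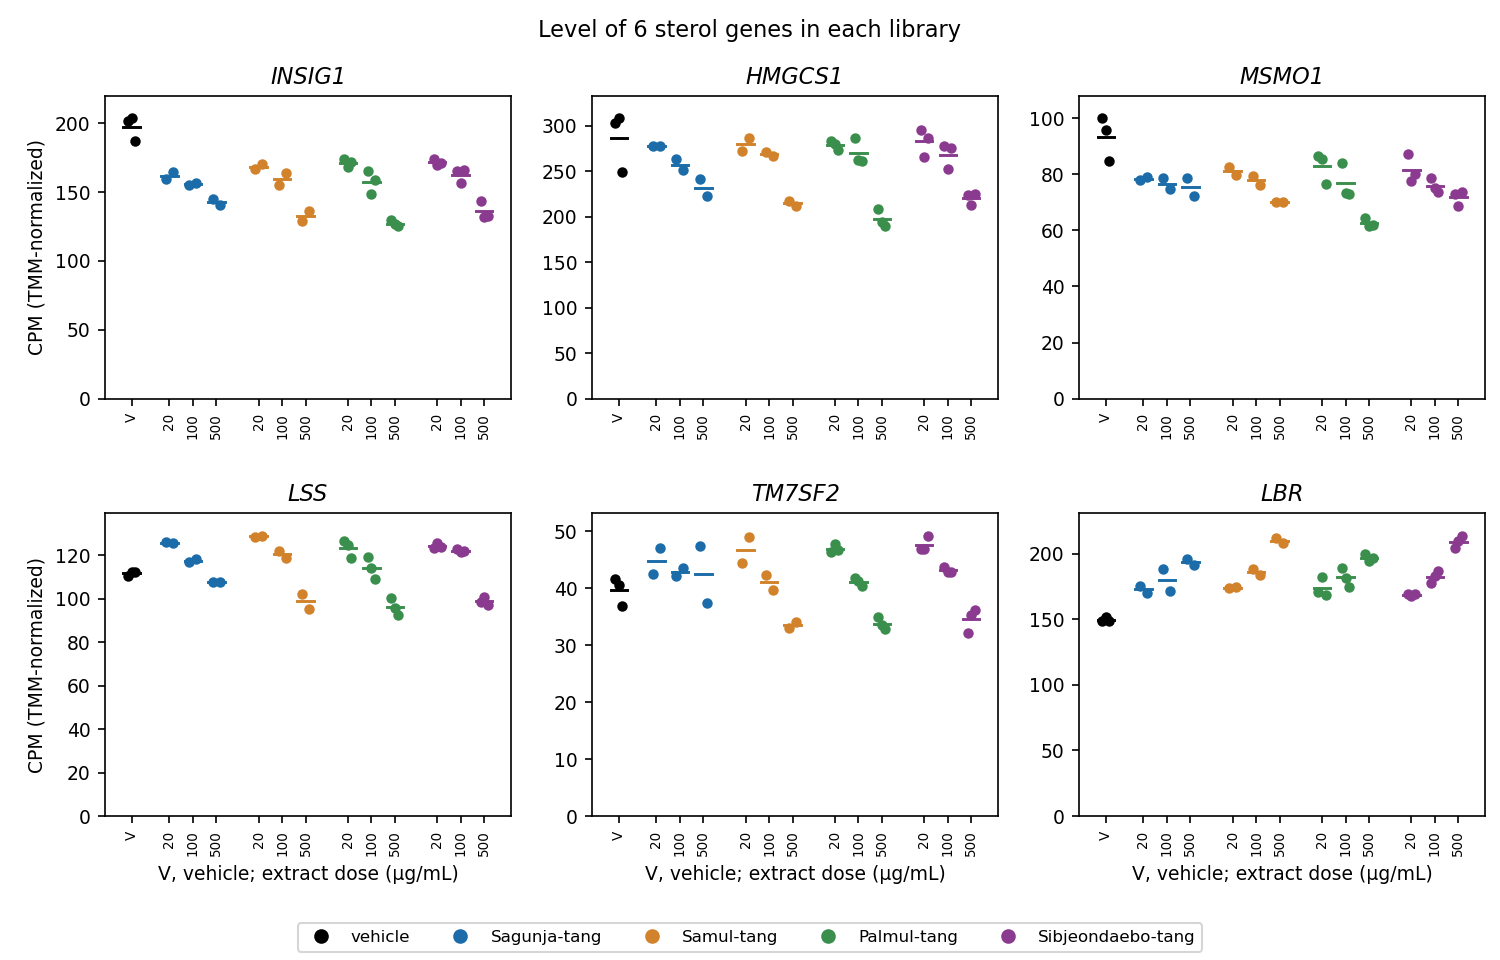
CPM (vertical, from 0) of 6 members in each library, by vehicle (V) and by dose of each extract in µg/mL (horizontal); points are libraries and lines are group means. INSIG1 is below vehicle in every extract library, LSS lies above vehicle at 20 and below it at 500 µg/mL, and LBR is above vehicle throughout.

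The 9 genes from lanosterol to cholesterol hold the members that differ most in direction. TM7SF2 and LBR both encode a sterol C14 reductase, LBR being also the lamin B receptor of the inner nuclear membrane. TM7SF2 was at 41.6, 40.5 and 36.9 CPM in vehicle, and at 42.4 and 47.0 at the low, 42.1 and 43.5 at the medium and 47.4 and 37.4 at the high dose with Sagunja-tang. TM7SF2 was at 44.5 and 48.9 at the low, 42.3 and 39.7 at the medium and 33.1 and 34.0 at the high dose with Samul-tang, and at 46.3, 47.7 and 46.7 at the low, 41.7, 41.2 and 40.4 at the medium and 34.9, 33.4 and 32.9 at the high dose with Palmul-tang. TM7SF2 was at 46.8, 46.9 and 49.1 at the low, 43.7, 42.8 and 42.9 at the medium and 32.1, 35.3 and 36.1 at the high dose with Sibjeondaebo-tang. Low-dose libraries were all above vehicle, and high-dose libraries of Samul-tang, Palmul-tang and Sibjeondaebo-tang were all below it, while the Sagunja-tang high-dose pair stood apart, replicate 2 above all vehicle libraries and replicate 3 within their range. The low dose differed from vehicle by 0.17 ± 0.07, 0.23 ± 0.07, 0.24 ± 0.06 and 0.26 ± 0.06, called in the last 3, and the high dose by 0.09 ± 0.07, -0.24 ± 0.07, -0.23 ± 0.06 and -0.20 ± 0.06, called in the same 3. From low to high TM7SF2 (ENSG00000149809, chromosome 11, 65111845 to 65116384) changed by -0.08 ± 0.07, -0.48 ± 0.07, -0.47 ± 0.06 and -0.47 ± 0.06, called in those 3. TM7SF2 overlaps VPS51 on the same strand, so reads of the shared stretch could have been assigned to either. High-dose TM7SF2 calls that ended with 1 library left out were Samul-tang over vehicle (-0.23 without high replicate 2) and Sibjeondaebo-tang over vehicle (-0.17 without vehicle replicate 1, -0.15 without high replicate 1). TM7SF2 calls over vehicle at the lower doses ended so for Samul-tang low (0.23, and 0.17 to 0.18 without vehicle replicate 3 or low replicate 3) and Palmul-tang low (0.24, and 0.19 without vehicle replicate 3).

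LBR (ENSG00000143815, chromosome 1, 225401502 to 225428925) went the other way. LBR was at 148, 152 and 149 CPM in vehicle, and at 176 and 170.1 at the low, 188 and 172 at the medium and 196 and 191 at the high dose with Sagunja-tang. LBR was at 173 and 174 at the low, 188 and 184 at the medium and 212 and 208 at the high dose with Samul-tang, and at 170.4, 182 and 169 at the low, 189, 182 and 175 at the medium and 199, 194 and 197 at the high dose with Palmul-tang. LBR was at 169, 167 and 169 at the low, 177, 183 and 187 at the medium and 204, 209 and 213 at the high dose with Sibjeondaebo-tang. All 30 extract libraries were above the 3 vehicle libraries, and all 10 high-dose libraries above all 20 of the lower doses, the latter being so for 0.7% of all genes. LBR rose by 0.37 ± 0.04, 0.49 ± 0.04, 0.40 ± 0.04 and 0.48 ± 0.04 against vehicle, with adjusted p of 1.79e-07, 5.71e-10, 3.74e-09 and 8.74e-11 by edgeR's quasi-likelihood test, and by 0.16 ± 0.04, 0.27 ± 0.04, 0.18 ± 0.04 and 0.31 ± 0.04 over the low dose. At the low dose it was already higher than vehicle by 0.21 ± 0.04, 0.22 ± 0.04, 0.22 ± 0.04 and 0.17 ± 0.04, called in all 4. High-dose LBR calls that ended with 1 library left out were Sagunja-tang over the low dose (0.14 without high replicate 2, 0.18 without low replicate 2, 0.14 without low replicate 3).

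MSMO1 (ENSG00000052802, chromosome 4, 165327623 to 165343160) is the C4-methyl sterol oxidase. MSMO1 was at 100.0, 95.9 and 84.7 CPM in vehicle, and at 77.8 and 79.0 at the low, 78.9 and 74.6 at the medium and 78.6 and 72.4 at the high dose with Sagunja-tang. MSMO1 was at 82.6 and 79.7 at the low, 79.5 and 76.4 at the medium and 70.1 and 70.2 at the high dose with Samul-tang, and at 86.5, 85.5 and 76.5 at the low, 83.9, 73.5 and 73.0 at the medium and 64.5, 61.7 and 61.9 at the high dose with Palmul-tang. MSMO1 was at 87.3, 77.7 and 80.1 at the low, 78.7, 75.1 and 73.9 at the medium and 72.9, 68.9 and 73.9 at the high dose with Sibjeondaebo-tang. Every high-dose library was below every vehicle library, and Palmul-tang was lowest. MSMO1 was called lower than vehicle in all 12 extract groups, at -0.26 ± 0.07, -0.21 ± 0.07, -0.17 ± 0.06 and -0.20 ± 0.06 at the low, -0.29 ± 0.07, -0.26 ± 0.07, -0.28 ± 0.06 and -0.30 ± 0.06 at the medium and -0.31 ± 0.07, -0.42 ± 0.07, -0.58 ± 0.06 and -0.38 ± 0.06 at the high dose. From low to high it changed by -0.06 ± 0.07, -0.21 ± 0.07, -0.40 ± 0.06 and -0.18 ± 0.06, called with Palmul-tang and Sibjeondaebo-tang. High-dose MSMO1 calls that ended with 1 library left out were Sibjeondaebo-tang over the low dose (-0.13 without low replicate 1, -0.15 without high replicate 2). MSMO1 calls over vehicle at the lower doses ended so for Sagunja-tang low (-0.26, and -0.23 without low replicate 2), Samul-tang low (-0.21, and -0.22 to -0.16 without vehicle replicate 1, vehicle replicate 2, low replicate 2 or low replicate 3), Palmul-tang low (-0.17, and -0.19 to -0.12 without vehicle replicate 1, vehicle replicate 2, low replicate 2 or low replicate 3), Sibjeondaebo-tang low (-0.20, and -0.17 to -0.15 without vehicle replicate 1, vehicle replicate 2, low replicate 2 or low replicate 3), Sagunja-tang medium (-0.29, and -0.24 without medium replicate 3) and Samul-tang medium (-0.26, and -0.29 to -0.23 without medium replicate 2 or medium replicate 3).

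SC5D introduces the C5 double bond. SC5D was at 149, 159.9 and 144 CPM in vehicle, and at 126 and 134 at the low, 119.9 and 126 at the medium and 109 and 117 at the high dose with Sagunja-tang. SC5D was at 133 and 140.0 at the low, 121 and 128 at the medium and 110.1 and 124 at the high dose with Samul-tang, and at 147, 130.3 and 135 at the low, 139, 123 and 135 at the medium and 112, 109 and 115 at the high dose with Palmul-tang. SC5D was at 136, 132 and 128 at the low, 137, 123 and 126 at the medium and 127, 117 and 111 at the high dose with Sibjeondaebo-tang. High-dose libraries were all below vehicle, and in each extract they were below the low dose. SC5D differed from vehicle by -0.42 ± 0.07, -0.37 ± 0.06, -0.43 ± 0.06 and -0.35 ± 0.06, called in all 4, and from the low dose by -0.20 ± 0.07, -0.22 ± 0.07, -0.29 ± 0.06 and -0.15 ± 0.06, called with Palmul-tang and Sibjeondaebo-tang. High-dose SC5D calls that ended with 1 library left out were Sibjeondaebo-tang over the low dose (-0.13 without low replicate 1, -0.15 without high replicate 2, -0.16 without low replicate 2, -0.11 without high replicate 3). SC5D calls over vehicle at the lower doses ended so for Sagunja-tang low (-0.22, and -0.17 to -0.16 without vehicle replicate 2 or low replicate 2), Sibjeondaebo-tang low (-0.20, and -0.17 to -0.15 without vehicle replicate 2 or low replicate 3), Sagunja-tang medium (-0.30, and -0.25 without medium replicate 2), Samul-tang medium (-0.28, and -0.24 without medium replicate 2) and Palmul-tang medium (-0.19, and -0.15 without vehicle replicate 2 or medium replicate 2).

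HSD17B7, a sterol 3-keto reductase, was the least abundant member per kilobase. HSD17B7 was at 20.0, 16.8 and 15.9 CPM in vehicle, and at 18.1 and 18.3 at the low, 18.4 and 18.8 at the medium and 17.7 and 16.8 at the high dose with Sagunja-tang. HSD17B7 was at 19.4 and 17.8 at the low, 17.9 and 16.9 at the medium and 15.9 and 15.1 at the high dose with Samul-tang, and at 21.2, 18.7 and 17.5 at the low, 18.5, 16.8 and 16.6 at the medium and 14.5, 13.2 and 13.7 at the high dose with Palmul-tang. HSD17B7 was at 20.5, 17.8 and 19.9 at the low, 19.9, 18.1 and 17.8 at the medium and 16.6, 15.2 and 13.9 at the high dose with Sibjeondaebo-tang. High-dose libraries were below the low-dose ones in all 4 extracts. Over the low dose it changed by -0.08 ± 0.10, -0.26 ± 0.09, -0.47 ± 0.08 and -0.35 ± 0.08, called with Palmul-tang and Sibjeondaebo-tang, and against vehicle by -0.03 ± 0.09, -0.18 ± 0.09, -0.35 ± 0.08 and -0.20 ± 0.08, called in the same extracts. The genome holds a closely similar pseudogene, so how reads were divided between the copies is uncertain. High-dose HSD17B7 calls that ended with 1 library left out were Sibjeondaebo-tang over vehicle (-0.10 without vehicle replicate 1, -0.20 without high replicate 2, -0.14 without high replicate 3).

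EBP is the sterol isomerase. EBP was at 82.2, 80.6 and 69.8 CPM in vehicle, and at 81.7 and 85.9 at the low, 84.2 and 80.2 at the medium and 101 and 86.8 at the high dose with Sagunja-tang. EBP was at 86.3 and 84.9 at the low, 82.9 and 81.9 at the medium and 74.5 and 73.1 at the high dose with Samul-tang, and at 87.0, 89.6 and 82.7 at the low, 86.3, 81.7 and 77.2 at the medium and 80.4, 76.6 and 72.3 at the high dose with Palmul-tang. EBP was at 92.9, 88.4 and 92.5 at the low, 87.4, 87.4 and 87.0 at the medium and 79.8, 81.0 and 86.0 at the high dose with Sibjeondaebo-tang. Sagunja-tang was the only extract whose high-dose libraries were above its low-dose libraries. EBP changed by 0.16 ± 0.07, -0.21 ± 0.07, -0.18 ± 0.06 and -0.15 ± 0.06 from low to high, called lower in the last 3, and against vehicle by 0.28 ± 0.06, -0.07 ± 0.06, -0.02 ± 0.06 and 0.09 ± 0.06, called higher with Sagunja-tang. High-dose EBP calls that ended with 1 library left out were Samul-tang over the low dose (-0.24 without high replicate 2, -0.21 without low replicate 2, -0.21 without high replicate 3, -0.24 without low replicate 3), Palmul-tang over the low dose (-0.17 without low replicate 1, -0.18 without high replicate 2, -0.16 without low replicate 2, -0.15 without high replicate 3), Sibjeondaebo-tang over the low dose (-0.13 without high replicate 1, -0.14 without low replicate 1, -0.14 without high replicate 2, -0.15 without low replicate 3) and Sagunja-tang over vehicle (0.17 without high replicate 2). EBP calls over vehicle at the lower doses ended so for Palmul-tang low (0.16, and 0.09 to 0.15 without vehicle replicate 3, low replicate 1 or low replicate 2) and Sibjeondaebo-tang medium (0.17, and 0.10 to 0.17 without vehicle replicate 3, medium replicate 1, medium replicate 2 or medium replicate 3).

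CYP51A1 demethylates lanosterol. CYP51A1 was at 218, 215 and 188 CPM in vehicle, and at 211 and 211 at the low, 211 and 201 at the medium and 209.5 and 195 at the high dose with Sagunja-tang. CYP51A1 was at 211 and 215 at the low, 209.7 and 209 at the medium and 202 and 194 at the high dose with Samul-tang, and at 223, 224 and 211 at the low, 227, 208 and 197 at the medium and 192, 185 and 179 at the high dose with Palmul-tang. CYP51A1 was at 235, 209 and 219.6 at the low, 216, 209.6 and 206 at the medium and 204, 196 and 201 at the high dose with Sibjeondaebo-tang. Palmul-tang had the lowest high-dose values. The low-to-high change was -0.06 ± 0.06, -0.10 ± 0.06, -0.24 ± 0.05 and -0.14 ± 0.05, called with Palmul-tang and Sibjeondaebo-tang, and the difference from vehicle -0.03 ± 0.06, -0.06 ± 0.06, -0.16 ± 0.05 and -0.05 ± 0.05, called with Palmul-tang. High-dose CYP51A1 calls that ended with 1 library left out were Sibjeondaebo-tang over the low dose (-0.10 without low replicate 1, -0.13 without high replicate 2, -0.14 without high replicate 3) and Palmul-tang over vehicle (-0.13 without vehicle replicate 1, -0.14 without vehicle replicate 2, -0.14 without high replicate 3).

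NSDHL takes part in removing the C4 methyl groups. NSDHL was at 91.3, 90.7 and 86.9 CPM in vehicle, and at 89.1 and 87.4 at the low, 86.4 and 86.7 at the medium and 93.3 and 83.7 at the high dose with Sagunja-tang. NSDHL was at 87.1 and 91.2 at the low, 89.2 and 93.2 at the medium and 79.6 and 83.7 at the high dose with Samul-tang, and at 98.7, 91.0 and 94.3 at the low, 93.9, 88.4 and 86.1 at the medium and 87.5, 84.1 and 81.4 at the high dose with Palmul-tang. NSDHL was at 100.5, 93.3 and 93.9 at the low, 98.3, 92.0 and 93.2 at the medium and 92.2, 92.5 and 89.9 at the high dose with Sibjeondaebo-tang. High-dose Samul-tang was below every vehicle library, and high-dose Palmul-tang overlapped vehicle. It changed by 0.00 ± 0.05, -0.13 ± 0.05, -0.17 ± 0.04 and -0.07 ± 0.04 from low to high, called with Palmul-tang, and differed from vehicle by -0.02 ± 0.05, -0.13 ± 0.05, -0.09 ± 0.04 and 0.03 ± 0.04, called with Samul-tang. High-dose NSDHL calls that ended with 1 library left out were Palmul-tang over the low dose (-0.14 without low replicate 1) and Samul-tang over vehicle (-0.12 without vehicle replicate 1, -0.13 without vehicle replicate 2, -0.10 without high replicate 2). DHCR7, which completes cholesterol, ranged from 375 to 463 CPM over the 33 libraries and was called in no comparison with vehicle or between doses.

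**Figure D4:**
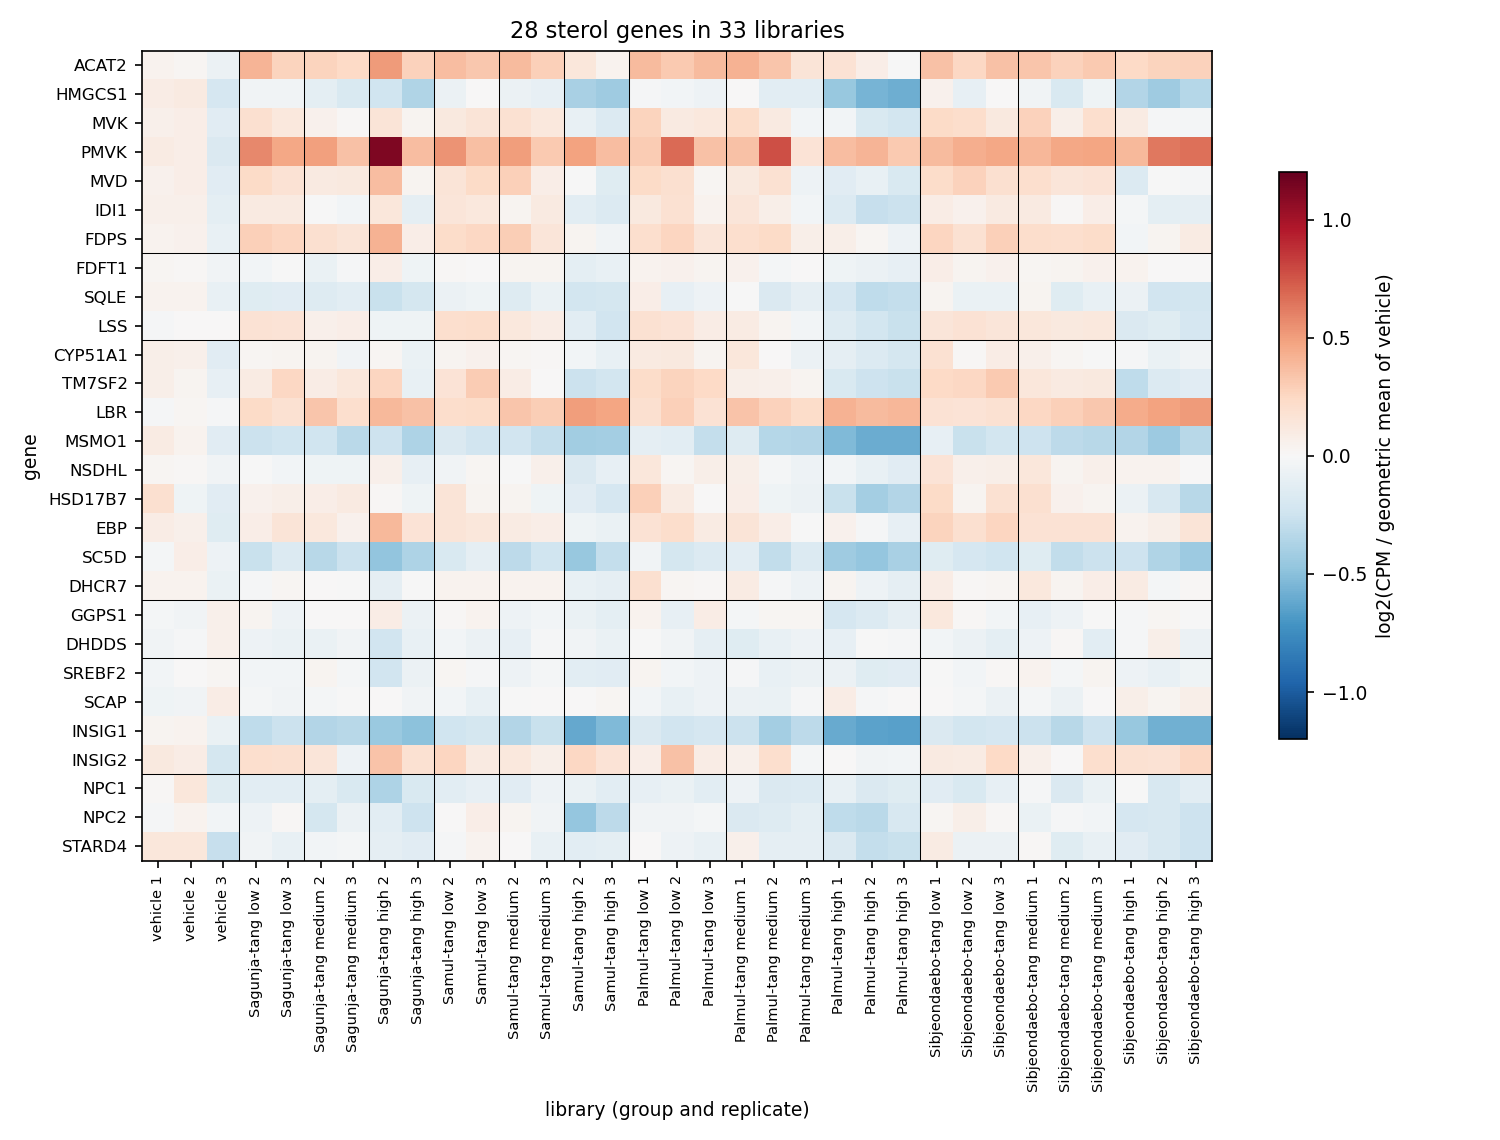
Log2 ratio of CPM to the vehicle geometric mean (colour scale) for the 28 members (vertical, by role) in the 33 libraries (horizontal, by group and replicate). INSIG1, MSMO1 and SC5D are blue and LBR, PMVK and ACAT2 red in nearly all extract libraries, HMGCS1 and LSS turn blue at the high dose, and Sagunja-tang high replicate 2 holds the strongest red for PMVK at 33.1 CPM.

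Among the sterol-sensing genes, INSIG1 (ENSG00000186480, chromosome 7, 155297776 to 155310235) was lower in every extract. INSIG1 was at 202, 204 and 187 CPM in vehicle, and at 159 and 165 at the low, 155 and 157 at the medium and 145 and 140.4 at the high dose with Sagunja-tang. INSIG1 was at 167 and 170.1 at the low, 155 and 164 at the medium and 129 and 136 at the high dose with Samul-tang, and at 174, 168 and 172 at the low, 165, 149 and 159 at the medium and 129, 127 and 125 at the high dose with Palmul-tang. INSIG1 was at 174, 169.5 and 171 at the low, 165, 156 and 166 at the medium and 144, 132 and 133 at the high dose with Sibjeondaebo-tang. All 30 extract libraries were below all 3 vehicle libraries, as was so for 4.68% of all genes, and all 10 high-dose libraries were below all 20 of the lower doses, together with HMGCS1 and LSS (3 of 28 members, against 1.04% of all genes). INSIG1 was called lower than vehicle at each dose, at -0.28 ± 0.05, -0.23 ± 0.05, -0.20 ± 0.04 and -0.20 ± 0.04 at the low, -0.34 ± 0.05, -0.31 ± 0.05, -0.32 ± 0.04 and -0.28 ± 0.04 at the medium and -0.47 ± 0.05, -0.57 ± 0.05, -0.63 ± 0.04 and -0.54 ± 0.04 at the high dose. At the high dose the adjusted p was 5.12e-08, 5.71e-10, 5.66e-12 and 1.29e-10 by edgeR's quasi-likelihood test. With Palmul-tang the mean went from 197 ± 9.15 CPM in vehicle to 127 ± 2.14 CPM (SD, n = 3 each). From low to high the change was -0.18 ± 0.05, -0.34 ± 0.05, -0.43 ± 0.04 and -0.34 ± 0.04, called in all 4. High-dose INSIG1 calls that ended with 1 library left out were Sagunja-tang over the low dose (-0.21 without high replicate 2, -0.21 without low replicate 2, -0.16 without high replicate 3, -0.16 without low replicate 3).

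SREBF2 itself was called against vehicle and not between doses. SREBF2 was at 271, 278 and 282 CPM in vehicle, and at 271 and 271 at the low, 284 and 272 at the medium and 237 and 263 at the high dose with Sagunja-tang. SREBF2 was at 281 and 273 at the low, 266 and 273 at the medium and 253 and 252 at the high dose with Samul-tang, and at 283, 271 and 266 at the low, 274, 261 and 263 at the medium and 264, 251 and 251 at the high dose with Palmul-tang. SREBF2 was at 276, 271 and 279 at the low, 284, 273 and 284 at the medium and 266, 259.9 and 267 at the high dose with Sibjeondaebo-tang. High-dose libraries were all below vehicle. It differed from vehicle by -0.15 ± 0.04, -0.13 ± 0.04, -0.12 ± 0.03 and -0.07 ± 0.03 at the high dose, called in all but Sibjeondaebo-tang, and from the low dose by -0.11 ± 0.04, -0.13 ± 0.04, -0.10 ± 0.03 and -0.06 ± 0.03, called in none. High-dose SREBF2 calls that ended with 1 library left out were Sagunja-tang over vehicle (-0.07 without high replicate 2) and Samul-tang over vehicle (-0.14 without high replicate 2, -0.14 without high replicate 3). SCAP, the escort of SREBP2, lay between 70.8 and 80.0 CPM in all libraries and was called in no comparison when all libraries were used. INSIG2, the relative of INSIG1 that is not a classical sterol target, lay between 19.1 and 28.3 CPM. It was called only for high-dose Sagunja-tang over vehicle, at 0.26 ± 0.09, and this was 0.16 without vehicle replicate 3 and 0.18 without Sagunja-tang high replicate 2, neither called.

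Of the 3 genes of sterol movement, NPC2, the soluble sterol carrier of the lysosome, fell in all 4 extracts against vehicle. NPC2 was at 41.0, 42.6 and 40.4 CPM in vehicle, and at 39.5 and 41.8 at the low, 35.7 and 39.2 at the medium and 37.8 and 34.7 at the high dose with Sagunja-tang. NPC2 was at 41.5 and 43.7 at the low, 42.2 and 40.0 at the medium and 30.0 and 33.3 at the high dose with Samul-tang, and at 40.1, 40.1 and 40.7 at the low, 36.6, 37.1 and 38.1 at the medium and 33.5, 33.1 and 36.3 at the high dose with Palmul-tang. NPC2 was at 42.0, 43.4 and 41.6 at the low, 39.2, 40.9 and 40.3 at the medium and 35.9, 36.1 and 34.8 at the high dose with Sibjeondaebo-tang. High-dose libraries were all below vehicle, lowest with Samul-tang, and low-dose libraries overlapped it. The difference from vehicle was -0.19 ± 0.05, -0.38 ± 0.05, -0.27 ± 0.05 and -0.22 ± 0.05, and from the low dose -0.17 ± 0.06, -0.43 ± 0.06, -0.23 ± 0.05 and -0.25 ± 0.05, called in the last 3. NPC2 overlaps ISCA2 on the opposite strand. High-dose NPC2 calls that ended with 1 library left out were Sagunja-tang over vehicle (-0.13 without high replicate 3). NPC2 calls over vehicle at the lower doses ended so for Palmul-tang medium (-0.15, and -0.15 to -0.13 without vehicle replicate 2, medium replicate 1 or medium replicate 2). NPC1, the membrane protein that takes sterol from NPC2, lay between 42.4 and 60.1 CPM and was called only for high-dose Sagunja-tang over vehicle, at -0.28 ± 0.07, which became -0.19 without high replicate 2 and was then not called. Without vehicle replicate 3, NPC1 was called lower in all 4 extracts, at -0.35 ± 0.06, -0.18 ± 0.06, -0.21 ± 0.06 and -0.18 ± 0.06, with adjusted p of 0.000219, 0.0399, 0.00735 and 0.016 by edgeR's quasi-likelihood test. NPC1 overlaps RMC1 on the opposite strand.

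STARD4 carries sterol between membranes and is a known target of SREBP2. STARD4 was at 68.5, 68.4 and 51.2 CPM in vehicle, and at 60.3 and 58.3 at the low, 60.6 and 61.0 at the medium and 57.7 and 56.4 at the high dose with Sagunja-tang. STARD4 was at 61.3 and 63.8 at the low, 62.2 and 58.6 at the medium and 56.9 and 57.2 at the high dose with Samul-tang, and at 62.4, 59.7 and 58.5 at the low, 64.7, 57.8 and 57.6 at the medium and 55.0, 51.0 and 51.5 at the high dose with Palmul-tang. STARD4 was at 66.4, 59.0 and 59.2 at the low, 62.8, 56.1 and 58.4 at the medium and 56.7, 54.4 and 52.4 at the high dose with Sibjeondaebo-tang. Vehicle replicate 3, at 51.2 CPM, was below all extract libraries but 1, while replicates 1 and 2 were above all of them. STARD4 differed from vehicle by -0.14 ± 0.08, -0.14 ± 0.08, -0.26 ± 0.07 and -0.20 ± 0.07, called with Palmul-tang and Sibjeondaebo-tang, and from the low dose by -0.06 ± 0.09, -0.13 ± 0.09, -0.20 ± 0.07 and -0.18 ± 0.07, called in none. High-dose STARD4 calls that ended with 1 library left out were Palmul-tang over vehicle (-0.19 without vehicle replicate 1, -0.19 without vehicle replicate 2) and Sibjeondaebo-tang over vehicle (-0.14 without vehicle replicate 1, -0.14 without vehicle replicate 2, -0.20 without high replicate 2, -0.18 without high replicate 3). Without vehicle replicate 3 the difference of STARD4 from vehicle was -0.26 ± 0.06, -0.26 ± 0.06, -0.38 ± 0.06 and -0.33 ± 0.06, called in all 4, with adjusted p of 0.0022, 0.00336, 1.87e-05 and 7.32e-05 by edgeR's quasi-likelihood test. On the branches from farnesyl diphosphate, GGPS1, which makes geranylgeranyl diphosphate, ranged from 41.1 to 51.6 CPM and was called with Palmul-tang alone, at -0.16 ± 0.05 over vehicle and -0.17 ± 0.05 over the low dose. GGPS1 overlaps ARID4B on the opposite strand. High-dose GGPS1 calls that ended with 1 library left out were Palmul-tang over the low dose (-0.15 without high replicate 1, -0.15 without low replicate 1, -0.17 without high replicate 2, -0.13 without low replicate 3) and Palmul-tang over vehicle (-0.12 without vehicle replicate 3, -0.13 without high replicate 1). DHDDS, a subunit of the dolichol-making prenyltransferase, ranged from 35.3 to 43.3 CPM and was called only for high-dose Sagunja-tang over vehicle, at -0.15 ± 0.05. High-dose DHDDS calls that ended with 1 library left out were Sagunja-tang over vehicle (-0.12 without vehicle replicate 3, -0.08 without high replicate 2).

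At the low dose more members were called higher than lower in each extract, but without vehicle replicate 3 this held with Samul-tang and Sibjeondaebo-tang and turned with the other two. Without that library 4, 3, 3 and 6 were higher and 6, 2, 4 and 4 lower. ACAT2, LSS and LBR were called higher in all 4 extracts, with or without any 1 library, and ACAT2 was at 0.34 ± 0.07, 0.35 ± 0.07, 0.35 ± 0.06 and 0.32 ± 0.06. With all libraries PMVK was also called higher in all 4, at 0.51 ± 0.16, 0.44 ± 0.16, 0.45 ± 0.14 and 0.42 ± 0.14, and FDPS at 0.27 ± 0.07, 0.23 ± 0.07, 0.20 ± 0.06 and 0.24 ± 0.06. Without vehicle replicate 3 PMVK was called in none of the 4, with adjusted p of 0.0898, 0.178, 0.133 and 0.163 by edgeR's quasi-likelihood test, and FDPS was no longer called with Samul-tang and Palmul-tang. INSIG1 and MSMO1 were called lower in all 4, INSIG1 also without any 1 library. Sibjeondaebo-tang gave 9 members higher and 3 lower (22% of all genes called, 11.1% higher and 10.9% lower). Palmul-tang gave 7 and 2 (20.3%, 10.6% and 9.74%). Samul-tang gave 6 and 2 (17.6%, 8.89% and 8.71%), and Sagunja-tang 5 and 3 (21.9%, 11.1% and 10.7%). At the medium dose the counts higher and lower were 7 and 3 with Sibjeondaebo-tang (26% of all genes called, 14% higher and 12% lower) and 3 and 4 with Palmul-tang (20%, 10.3% and 9.63%). They were 4 and 3 with Samul-tang (20.1%, 10.9% and 9.27%) and 2 and 3 with Sagunja-tang (16.4%, 8.4% and 8.05%). Except for the number higher with Sibjeondaebo-tang, these medium-dose counts were near the shares of all genes. There INSIG1, MSMO1 and SC5D were lower, and ACAT2 and LBR higher, in all 4. SC5D was at -0.30 ± 0.06, -0.28 ± 0.06, -0.19 ± 0.06 and -0.23 ± 0.06. Without vehicle replicate 3 the medium-dose counts were 1, 2, 2 and 3 higher and 5, 4, 7 and 5 lower. These comparisons share the vehicle libraries with each other and with those of the high dose.

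Counts at these doses moved with single libraries. At the low dose Palmul-tang went from 9 calls to 5 without its replicate 2, and Sagunja-tang from 8 to 4 without its replicate 2. Samul-tang went from 8 to 5 without vehicle replicate 3 or its own replicate 2 and to 4 without its replicate 3. At the medium dose Palmul-tang went from 7 to 4 without vehicle replicate 2 or its own replicate 2, Samul-tang from 7 to 3 and Sagunja-tang from 5 to 3 without their replicate 2. Between medium and low doses edgeR's quasi-likelihood test called no member with any extract, and called 0%, 0.00574%, 0.00574% and 0.0975% of all genes. At an unadjusted p under 0.05 it gave 2, 3, 4 and 2 members, against 3.00, 4.00, 4.80 and 10.0% of all genes. DESeq2 called 0 members in each. With Palmul-tang 26 of the 28 members had a negative value, with a median of -0.06.

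Extracts were also compared with each other at the high dose. With Samul-tang against Sagunja-tang (n = 2 against 2), 5 members were lower and none higher, where 5.47% of all genes were called and 1.92% were called lower. They were EBP at -0.35 ± 0.07, TM7SF2 at -0.33 ± 0.08, ACAT2 at -0.30 ± 0.07, FDPS at -0.26 ± 0.07 and NPC2 at -0.19 ± 0.06. The members' median was -0.11, and 15 members had an unadjusted p under 0.05, as did 22.5% of all genes. The count went to 0 without Sagunja-tang high replicate 2 or Samul-tang high replicate 3, to 1 without Samul-tang high replicate 2, to 13 without Sagunja-tang high replicate 3 and to 0 with only these 2 groups fitted. DESeq2 called 8.

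With Sibjeondaebo-tang against Palmul-tang (n = 3 against 3), which differ by the herbs that Sibjeondaebo-tang adds, all 28 members had a positive value, from 0.02 to 0.23, with a median of 0.09 against 0.01 for all genes. None was called by edgeR's quasi-likelihood test, where 3.87% of all genes were called. At an unadjusted p under 0.05 there were 12 members, all higher, where 16.4% of all genes were under it in either direction. DESeq2 called 3 members. MSMO1 came closest, at 0.20 ± 0.06 with an adjusted p of 0.0565 by edgeR, followed by GGPS1 at 0.16 ± 0.05 with 0.0683. MSMO1 values at the high dose were 64.5, 61.7 and 61.9 CPM with Palmul-tang and 72.9, 68.9 and 73.9 CPM with Sibjeondaebo-tang, which did not overlap.

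**Figure D5:**
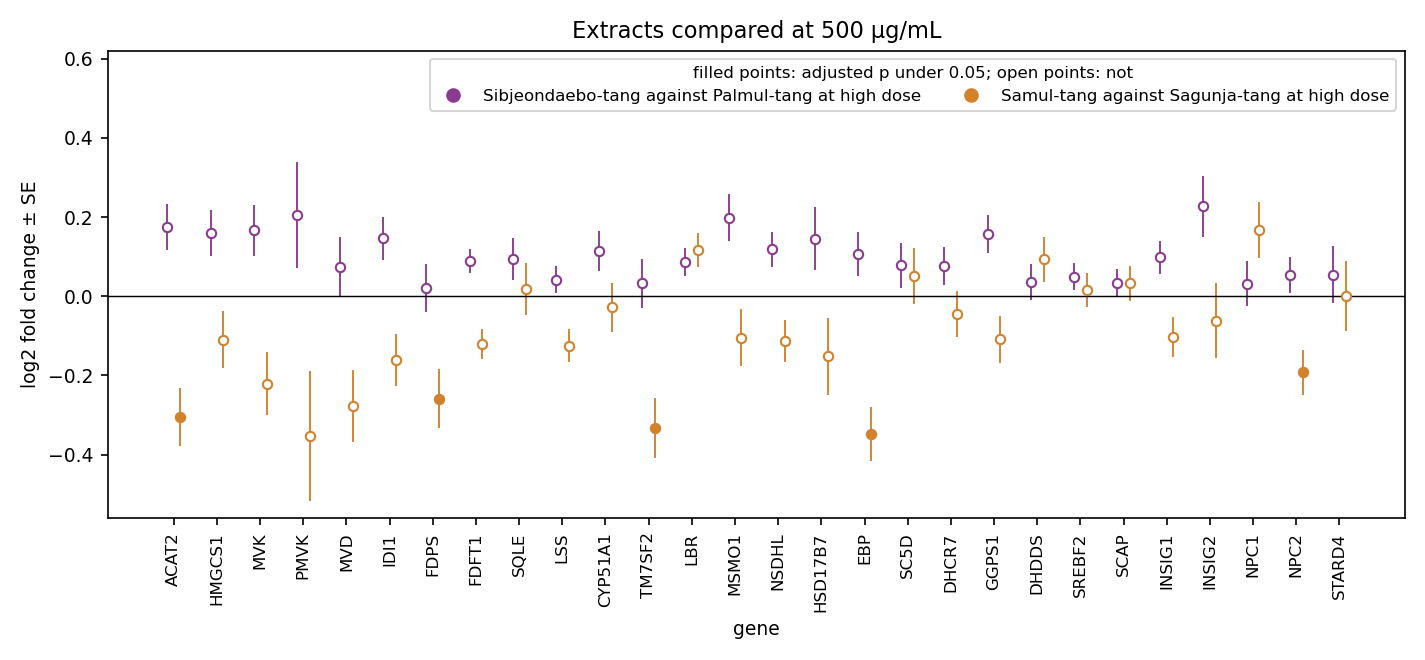
Log2 fold change ± SE (vertical) of each member (horizontal) between extracts at the high dose, for Sibjeondaebo-tang against Palmul-tang and Samul-tang against Sagunja-tang. Filled points had an adjusted p under 0.05: all Sibjeondaebo-tang against Palmul-tang points are open and above 0, and 5 Samul-tang against Sagunja-tang points are filled, all below 0.

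Whether the low-to-high change itself differed between extracts was tested as a difference of changes. EdgeR's quasi-likelihood test called no member in any of the 4 such contrasts, in which 0.138%, 0.00574%, 0% and 1.45% of all genes were called for Samul-tang minus Sagunja-tang, Palmul-tang minus Sagunja-tang, Palmul-tang minus Samul-tang and Sibjeondaebo-tang minus Palmul-tang. Members with an unadjusted p under 0.05 numbered 9, 16, 2 and 5, against 11.1, 8.61, 3.96 and 10.8% of all genes. DESeq2 called 2, 1, 0 and 0 members. All 16 of Palmul-tang minus Sagunja-tang were negative, the furthest being HSD17B7 at -0.40 ± 0.12, TM7SF2 at -0.39 ± 0.10 and MSMO1 at -0.35 ± 0.09. Without Sagunja-tang high replicate 3, which leaves high replicate 2 alone in its group, 9 members were called for Samul-tang minus Sagunja-tang and 12 for Palmul-tang minus Sagunja-tang. The larger number of calls with Palmul-tang than with Sagunja-tang is therefore not shown to be a difference between the extracts.

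Other genes of sterol and lipid handling were counted in 5 lists, also chosen with earlier results of these data known. Sterol export and LXR targets (9 measured of 11), genes switched on by oxysterol receptors, were higher at the high dose against vehicle in 4, 5, 6 and 6 genes and lower in 1, 0, 0 and 0. In percent 44.4, 55.6, 66.7 and 66.7 were higher, against 18.7, 15, 17.3 and 20.5% of all genes higher and 18, 12.5, 14.8 and 19.1% lower. From the low to the high dose 3, 5, 4 and 6 rose, where 3.33, 4.1, 7.66 and 15.5% of all genes did, and none fell, with medians of 0.15, 0.31, 0.28 and 0.31. ABCG1, a sterol exporter, rose over the low dose by 0.54 ± 0.13, 0.83 ± 0.12, 1.04 ± 0.10 and 1.02 ± 0.10. MYLIP, which marks lipoprotein receptors for degradation, rose by 0.35 ± 0.08, 0.35 ± 0.08, 0.29 ± 0.06 and 0.31 ± 0.06, and NR1H3, which encodes LXR alpha, by 0.24 ± 0.06, 0.31 ± 0.06, 0.28 ± 0.05 and 0.20 ± 0.05. LPCAT3, a phospholipid acyltransferase, changed by 0.15 ± 0.06, 0.32 ± 0.06, 0.35 ± 0.05 and 0.39 ± 0.05, called in the last 3.

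Of the fatty acid synthesis genes (12 measured of 13), 1, 3, 4 and 3 were higher than vehicle at the high dose and 2 were lower in each extract, with medians from -0.02 to 0.06. As shares these are 8.33, 25.0, 33.3 and 25.0% higher and 16.7% lower in each, against 18.7, 15, 17.3 and 20.5% of all genes higher and 18, 12.5, 14.8 and 19.1% lower, so that most lay near the background. ACSS2, which makes acetyl-CoA from acetate, changed over the low dose by -0.61 ± 0.08, -0.90 ± 0.08, -0.96 ± 0.07 and -1.06 ± 0.07, and LPIN1, a phosphatidate phosphatase, by -0.30 ± 0.09, -0.30 ± 0.09, -0.43 ± 0.07 and -0.43 ± 0.07, called lower in all 4. ELOVL6, a fatty acid elongase, was higher than vehicle by 0.15 ± 0.04, 0.33 ± 0.04, 0.28 ± 0.04 and 0.30 ± 0.04, called in all 4, and ACSL3, an acyl-CoA synthetase, by 0.02 ± 0.04, 0.10 ± 0.04, 0.14 ± 0.03 and 0.14 ± 0.03, called in the last 3.

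Genes of SREBP processing and sterol-regulated degradation (11 measured) were higher than vehicle at the high dose in 3, 4, 2 and 5 and lower in 2, 0, 1 and 0. The shares higher were 27.3, 36.4, 18.2 and 45.5%, and lower 18.2, 0, 9.09 and 0%, against 18.7, 15, 17.3 and 20.5% of all genes higher and 18, 12.5, 14.8 and 19.1% lower, and those of Palmul-tang and the lower share of Sagunja-tang were near the background. ERLIN1, a scaffold in the degradation of sterol enzymes, was higher by 0.14 ± 0.04, 0.22 ± 0.04, 0.19 ± 0.04 and 0.25 ± 0.04 and PGRMC1, a haem-binding membrane protein, by 0.33 ± 0.05, 0.18 ± 0.05, 0.16 ± 0.05 and 0.26 ± 0.05, both called in all 4. MBTPS1, the site-1 protease that cuts SREBP, differed by -0.16 ± 0.03, -0.07 ± 0.03, -0.11 ± 0.03 and -0.05 ± 0.03, called with Sagunja-tang and Palmul-tang. Genes that use isoprenoids (15 measured) were higher in 4, 4, 5 and 7 and lower in 2, 1, 2 and 1. This made 26.7, 26.7, 33.3 and 46.7% higher and 13.3, 6.67, 13.3 and 6.67% lower, against the same shares of all genes, and the lower counts with Sagunja-tang and Palmul-tang were near them. RABGGTB, a subunit of the Rab prenyltransferase, was higher by 0.37 ± 0.06, 0.35 ± 0.06, 0.32 ± 0.06 and 0.32 ± 0.06, and ICMT and RCE1, which finish prenylated proteins, by 0.19 ± 0.06, 0.22 ± 0.06, 0.19 ± 0.05 and 0.29 ± 0.05 and by 0.19 ± 0.06, 0.15 ± 0.06, 0.18 ± 0.05 and 0.22 ± 0.05. SRD5A3, needed for dolichol, fell in each, at -0.25 ± 0.09, -0.27 ± 0.09, -0.46 ± 0.08 and -0.23 ± 0.08.

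Sterol transport and storage genes (17 measured) were higher than vehicle in 2, 3, 4 and 6 and lower in 5, 2, 3 and 2. The shares higher were 11.8, 17.6, 23.5 and 35.3%, and lower 29.4, 11.8, 17.6 and 11.8%, against 18.7, 15, 17.3 and 20.5% of all genes higher and 18, 12.5, 14.8 and 19.1% lower, with those of Samul-tang and the lower share of Palmul-tang near the background. STARD3, a late endosomal sterol carrier, was higher by 0.30 ± 0.05, 0.17 ± 0.05, 0.25 ± 0.05 and 0.24 ± 0.05, called in all 4, and GRAMD1A, which moves sterol from the plasma membrane, fell in each, at -0.42 ± 0.12, -0.47 ± 0.12, -0.46 ± 0.11 and -0.52 ± 0.11. SCARB1, the HDL receptor, differed by -0.02 ± 0.05, 0.15 ± 0.05, 0.17 ± 0.04 and 0.26 ± 0.04, called in the last 3, and OSBP, an oxysterol-binding protein, by -0.21 ± 0.04, -0.14 ± 0.04, -0.11 ± 0.03 and -0.06 ± 0.03, called in the former 3. Over the low dose, GRAMD1A changed by -0.33 ± 0.13, -0.35 ± 0.13, -0.23 ± 0.11 and -0.39 ± 0.11, called with Sibjeondaebo-tang alone.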

How the data were processed

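RNA-seq libraries of 33 HT29 samples were read from the gene table deposited for the series, in which 240 of 273 columns were not used. The deposited values are expected counts, unnormalized estimates of reads per gene, of which 9.45% were not whole and were rounded here. Per the submitters' processing notes the authors used FastQC 0.11.9, Trim Galore 0.6.5, STAR 2.7.3a and RSEM 1.3.3 with hg38 (GRCh38). The annotation release is not given in the sources used here. Gene positions were taken from GENCODE 29 by identifier.

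Genes were kept by filterByExpr with a minimum count of 10, which left 17432 of 60675. Libraries were scaled by TMM and fitted in edgeR 4.0.16 (R 4.3.3, limma 3.58.1) by the quasi-likelihood method with 1 coefficient per group over all 13 groups, which gave 20 residual degrees of freedom. The 26 contrasts were 12 against vehicle, 8 between doses, 2 between extracts and 4 differences of changes. P-values were adjusted by Benjamini-Hochberg over all 17432 genes, with a threshold of 0.05. Alternatives were RLE scaling, no filter, a replicate block, mitochondrial genes left out of the scaling, a length and GC correction, DESeq2 1.42.0, only the groups compared, and each library left out. On simulated counts of 17211 genes with 200 changed, the fit of Palmul-tang high against low recovered 34.3, 64.2 and 78.8% of changes of 0.25, 0.5 and 1 on the log2 scale, with 8 false calls.

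The members and lists were chosen with earlier results of these data known. Library values are given for members called at the high dose, against low or vehicle, in at least 2 extracts. Genes outside the members are named from each list by the 4 smallest p in Palmul-tang high against vehicle, among those called.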

Additional observations from a re-analysis of the deposited data

How the results depend on the processing

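No direction of a called member value reversed under any alternative run. Of 176 member calls over all comparisons, 176 were kept with RLE scaling, 176 with DESeq2, 172 with mitochondrial genes left out of the scaling, 166 without the filter on low counts, 161 with the length and GC correction and 145 when only the groups compared were fitted. Counts of called members moved by over 1.5 times as follows, and the cause was not tested. They are given without the share of all genes called in the same run. With only the groups compared, Sagunja-tang high had 5 against vehicle and 0 against low, Samul-tang high had 19 against low, Samul-tang against Sagunja-tang had 0 and Sibjeondaebo-tang against Palmul-tang had 6. Without the filter, Sagunja-tang medium against vehicle had 8, Sibjeondaebo-tang against Palmul-tang 5, and the differences of changes 3 (Samul-tang minus Sagunja-tang) and 5 (Palmul-tang minus Sagunja-tang). With DESeq2, Samul-tang against Sagunja-tang had 8, Sibjeondaebo-tang against Palmul-tang 3, and the same differences 2 and 1.

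Over all genes, deviations of same-numbered libraries were at most weakly correlated: 55 correlations ran from -0.0668 to 0.152, with 4 over 0.1. Where both groups have 2 libraries, the 2 correlations are equal by construction. In 1 of 11 comparisons with 3 pairs every library correlated best with its own number. Single members could still move with the replicate number. SQLE and DHCR7 were highest in replicate 1 at each dose of Palmul-tang and Sibjeondaebo-tang. With a replicate block all 176 calls were kept and 48 more member values were called. Counts moved to 9 for Sagunja-tang medium against vehicle, 19 for Samul-tang high against low, 9 for Samul-tang against Sagunja-tang, 3 for Sibjeondaebo-tang against Palmul-tang and 2 for Palmul-tang minus Sagunja-tang.

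With 1 library left out, which leaves some groups with a lone library assumed to vary like the others, counts against vehicle at the high, medium and low dose ran from 7 to 16, 3 to 6 and 4 to 10 with Sagunja-tang, from 7 to 15, 3 to 6 and 4 to 6 with Samul-tang, from 13 to 17, 4 to 9 and 5 to 9 with Palmul-tang, and from 10 to 16, 7 to 10 and 8 to 12 with Sibjeondaebo-tang. High against low ran from 1 to 7, 6 to 8, 15 to 21 and 9 to 14. Samul-tang against Sagunja-tang ran from 0 to 13, and the differences of changes from Sagunja-tang from 0 to 9 with Samul-tang and 0 to 12 with Palmul-tang. Groups of 2 or 3 libraries limit what can be called, but the effect of group size was not tested. The simulation of Palmul-tang high against low, with 3 libraries in each group, recovered 34.3% of changes of 0.25 on the log2 scale. It compared no groups of 2 and changed far fewer genes than were called in that comparison. The share missed in the simulation therefore cannot be taken as the share missed here.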
